A study of Mus musculus with 17 samples.

Results

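In mouse podocytes taken 9 days after adriamycin, 6738 genomic regions carried a peak of the transcription factor WT1 that was found in none of the other 4 peak lists of the study. They were obtained by joining the peaks of all 5 deposited lists wherever these overlapped or touched, which gave 41766 regions, of which 14400 (34.5%) lay in 1 list alone. The members were selected on the called peaks of the 5 lists. A day 9 peak was present in 31496 regions, and the 6738 (21.4%) with no peak from any other list are called day 9 only regions here. The choice rests on the presence and absence of peaks, so that their number, their enrichment and their width are descriptions.

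WT1 binds DNA through zinc fingers and is required by podocytes throughout life, and its loss from them leads to glomerular disease. Podocytes are the epithelial cells that wrap the capillaries of the kidney glomerulus and hold back plasma protein with interlocking foot processes. Adriamycin (doxorubicin, ADR in the labels) injures podocytes and causes proteinuria in mice.

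Binding was profiled by chromatin immunoprecipitation with an antibody to WT1 followed by sequencing (ChIP-seq), and a peak is a stretch where immunoprecipitated fragments pile up above the local background. Purified podocytes came from mTmG-Nphs2cre mice, a reporter strain in which a Cre recombinase under the promoter of the podocin gene marks the podocyte, and gave 2 libraries at day 9 after ADR, 2 libraries at day 14 after ADR and 3 libraries after vehicle (phosphate-buffered saline, PBS), for which no day is labelled. Isolated glomeruli of BALB/cJ mice, which hold other cell types beside podocytes, gave 4 ADR and 4 PBS libraries with no day labelled, and 1 input library for each treatment. All mice were labelled wildtype and aged 7 to 8 weeks. A single peak list stood for each of the 5 immunoprecipitation groups, so the libraries behind a list could not be set against one another and no test between groups was run. A site without WT1 and a site whose signal stayed under the threshold of a list cannot be told apart in such lists.

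The lists differed in length, with 31949 peaks at day 9, 6694 at day 14, 16634 in ADR glomeruli, 23402 in PBS podocytes and 29082 in PBS glomeruli. The share of a list's regions that lay in no other list was 21.4% for day 9, 0.183% for day 14, 8.81% for ADR glomeruli, 7.08% for PBS podocytes and 16.3% for PBS glomeruli. In numbers these were 6738 regions for day 9, 12 for day 14, 1409 for ADR glomeruli, 1631 for PBS podocytes and 4610 for PBS glomeruli. Day 9, the longest list, thus had the most regions to itself.

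When every list was trimmed to the 16634 peaks with the best caller p-values, the length of the ADR glomerular list, 1694 regions (10.3% of those with a day 9 peak) were in day 9 alone. At that length the share was 0.929% for day 14, whose list was already shorter, 24.5% for ADR glomeruli, 9.68% for PBS podocytes and 12% for PBS glomeruli. With all lists trimmed to 6694 peaks, the day 9 share was 6.11%, against 10.96% for day 14, 27.6% for ADR glomeruli, 8.24% for PBS podocytes and 13.05% for PBS glomeruli. At equal length the day 9 list therefore did not lead, and its share was the lowest of the 5 when 6694 peaks were taken from each.

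**Figure D1:**
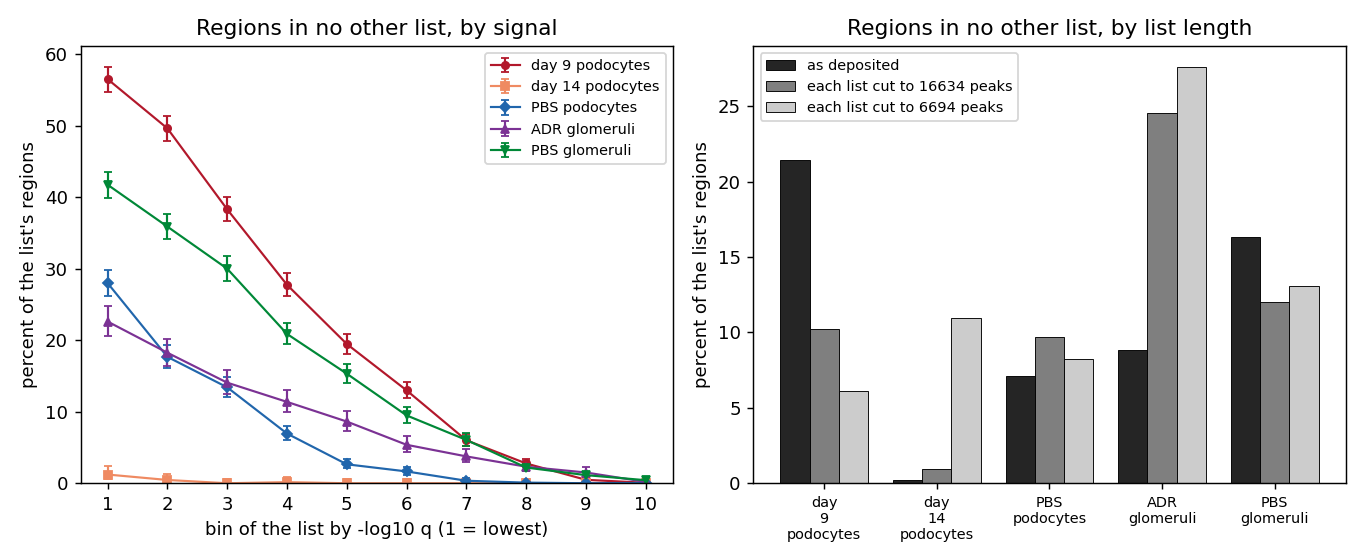
Left, percent of each list's regions with a peak in no other list (y axis) in 10 bins of equal size of the list's own −log10 q (x axis, 1 the lowest), with 95% Wilson intervals that cover the counting of regions. Tied values were split between bins by their order along the genome. Right, the same percent over whole lists as deposited and with each list trimmed by caller p-value. Day 9 falls from 56.5% in its lowest bin to 0.0635% in its highest, and its share over the whole list drops to 10.3% and 6.11% at the 2 trimmed lengths.

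The day 9 only regions had lower values than the rest of the day 9 list. Their median fold enrichment, the caller's ratio of signal at the summit to background, was 5.28, against 7.84 in the 24758 other regions with a day 9 peak. The middle 50% of day 9 only regions spanned 4.60 to 6.51-fold, and that of the others 5.21 to 13.9-fold. An enrichment of at least 10-fold was reached by 317 day 9 only regions (4.70%), where 31.0% of all regions with a day 9 peak reached it, and 53 reached 15-fold. The −log10 q of the caller was at least 10 in 2188 day 9 only regions (32.5%), against 70.0% of all regions with a day 9 peak. Their median −log10 q was 7.71, against 24.5 in the others. Regions in 1 list alone were weak in every list: their median enrichment stood at percentile 31.3 of the list for day 9, 20.99 for day 14, 24.9 for ADR glomeruli, 26.7 for PBS podocytes and 24.8 for PBS glomeruli.

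Their peaks were also narrow. The median width of the day 9 peak was 324 bp in day 9 only regions and 495 bp in the others. At like −log10 q most of this difference was absent. In 10 bins of −log10 q with tied values kept together, the medians were 273 and 286 bp in the lowest bin. They were 367 and 378 bp in the fourth and 445 and 461 bp in the sixth. The highest bin went the other way, with 871 bp over 2 day 9 only regions and 782 bp in the others. The narrowest day 9 peak was 251 bp, and 1067 day 9 only regions (15.8%) were narrower than 260 bp, against 711 (2.87%) of the others. Every day 9 only region held 1 peak, and 576 of them (8.55%) were at least 500 bp wide, against 49.0% of the others. The widest was chr1:153524344-153525492, with 1149 bp at 8.06-fold (coordinates are mm9, counted from 1). The distributions of enrichment, q and width show the day 9 only regions shifted to lower values along most of the range.

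**Figure D2:**
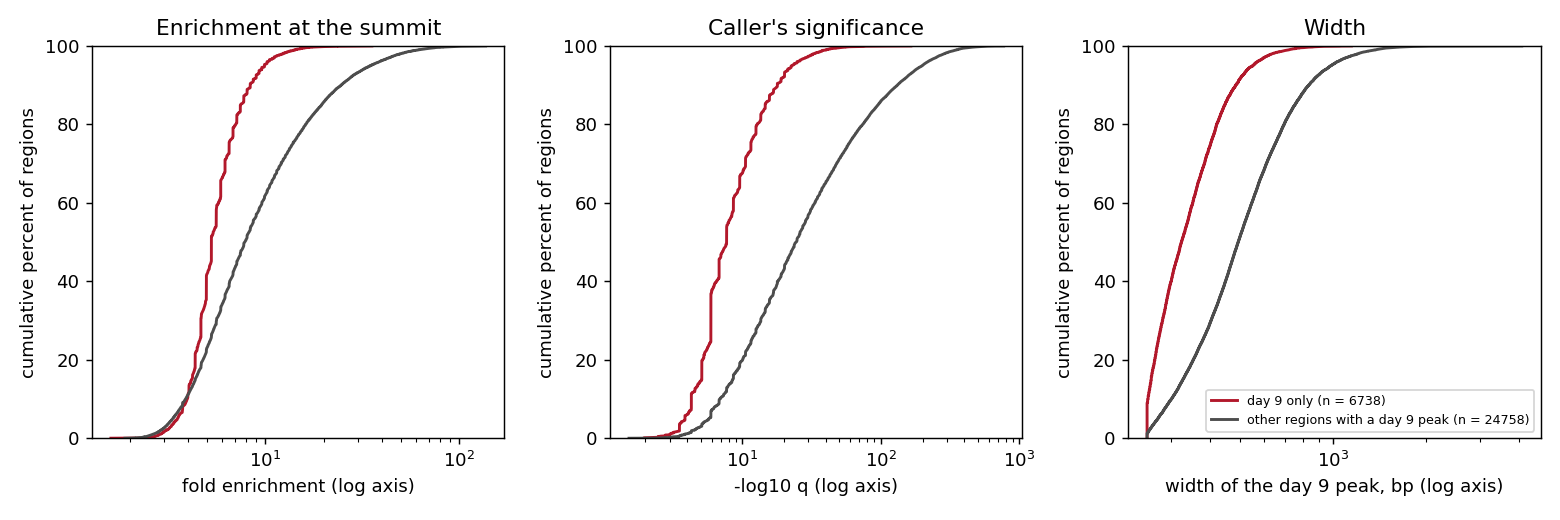
Cumulative percent of regions (y axis) by fold enrichment, by −log10 q and by width of the day 9 peak in bp (x axes, log scale), for day 9 only regions (red) and the other regions with a day 9 peak (grey). Medians are 5.28 and 7.84 for fold enrichment, 7.71 and 24.5 for −log10 q, and 324 and 495 bp for width, and the fold curves meet at their low end.

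Signal rose with the number of further lists that shared a region. Median day 9 enrichment was 5.28-fold with no other list, 5.73 with 1, 7.30 with 2, 7.33 with 3 and 20.7 with all 4. Among regions with 1 further list, 769 were shared with ADR glomeruli (median 5.85-fold), 100 with day 14 (10.1-fold), 2098 with PBS podocytes (5.69-fold) and 2592 with PBS glomeruli (5.59-fold). The day 9 only regions thus lay close below the regions shared with ADR glomeruli, PBS podocytes or PBS glomeruli alone, and further below the few shared with day 14 alone.

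With the day 9 regions in 10 bins of equal size by −log10 q, the share of day 9 regions that were day 9 only was 56.5% (95% Wilson interval 54.8 to 58.2, over 3150 regions) in the lowest bin, 19.5% in the fifth and 0.0635% in the highest, where 2 of 3150 regions had no other list. Many regions had tied −log10 q, and bins of equal size split these by their order along the genome. With ties kept together, 59.1% of 4202 regions in the lowest bin were day 9 only, and 44.3% of 2588 in the second. With bins of fold enrichment the order was not the same. The lowest of the 10 bins, at 1.598 to 3.90-fold, held 19.9% day 9 only regions, while the next 2 held 41.4% and 41.5%. In that lowest bin the median −log10 q was 4.73 for day 9 only regions and 7.37 for the others. This was not particular to the lowest bin, since the others had the higher median −log10 q in all 10 bins of fold enrichment. In the next 2 bins, where the share was higher, the medians were 5.10 and 5.94 for day 9 only regions and 10.1 and 10.2 for the others.

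The rule has an edge where a peak of another list lies close by. The nearest peak of another list was 1 to 25 bp away for 20 day 9 only regions, whose median enrichment was 4.02-fold. Just outside, 18 day 9 peaks overlapped or touched a peak of another list by at most 25 bp, with a median of 4.67-fold. Within 500 bp of a peak of another list lay 542 day 9 only regions (8.04%), so that 6196 stood farther away. The closest were chr10:59405973-59406223 (4.2-fold) and chr15:68193970-68194220 (3.22-fold), each 1 bp from another list's peak.

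A small number of day 9 only regions were strong. The strongest, chr10:69778251-69778925, had an enrichment of 35.5-fold and a −log10 q of 165, and ranked 1205 by enrichment among all regions with a day 9 peak. None of the 1000 strongest day 9 regions was thus day 9 only, and 34 of the 5000 strongest were. In the 100 kb centred on its summit, the caller listed 4 peaks at day 9, of which 3 were day 9 only, 1 at day 14, 0 in ADR glomeruli, 1 in PBS podocytes and 1 in PBS glomeruli. Its nearest region, 10.8 kb away, was itself day 9 only, and a region with a PBS podocyte peak followed at 13.4 kb.

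The next was chr9:48594818-48595884, at 31.8-fold with a −log10 q of 137 and a width of 1067 bp. It lay 175 bp from another day 9 only region and 46.1 kb from the nearest region with a PBS podocyte peak. Around its summit, within 50 kb to either side, there were 9 peaks at day 9, 0 at day 14, 6 in ADR glomeruli, 2 in PBS podocytes and 4 in PBS glomeruli. This neighbourhood thus held called peaks in both PBS lists and in ADR glomeruli as well, though none at the region itself, by the rule.

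The third, chr8:93019497-93020180, had 30.01-fold enrichment and a −log10 q of 108. Its nearest region, 6.76 kb away, carried a day 9 and an ADR glomerular peak, and no PBS podocyte peak lay within 50 kb of its summit. The nearest region with one was 55.4 kb away. The neighbour at 6.76 kb was in no PBS list, while for the third region itself this is part of the rule. By the same rule the third region was in neither ADR glomeruli nor day 14. Day 14 had 0 peaks within 50 kb of its summit.

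The fourth, chr6:34533095-34533873, reached 26.3-fold in a crowded stretch. Within 50 kb of its summit there were 11 peaks at day 9, 7 of them in day 9 only regions, 2 at day 14, 4 in ADR glomeruli, 5 in PBS podocytes and 3 in PBS glomeruli. It lay 1.40 kb from a region shared with PBS podocytes and PBS glomeruli. Here day 9 only regions outnumbered the peaks of any other list, in a stretch picked by a day 9 only region and from lists of unequal length.

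Another strong region, chr9:7559906-7560476 (25.4-fold), lay 7.51 kb from a further day 9 only region and 34.6 kb from the nearest region with a peak of another list. In the same stretch, chr9:7570544-7571594 was 1051 bp wide, among the 5 widest day 9 only regions, at 13.3-fold. Together with 1 further region they made up 3 of the 4 day 9 peaks within 50 kb of the stronger summit, where PBS podocytes and PBS glomeruli had 1 peak each and day 14 and ADR glomeruli had 0.

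The remaining 5 of the 10 strongest ranged from 21.4 to 23.5-fold. Those at chr8:85562316-85562907 and chr12:96074973-96075481, both 23.5-fold, had another day 9 only region as their nearest, at 5.22 and 10.7 kb, and regions of other lists 27.1 and 47.1 kb away. The regions chr16:15984045-15984935 and chr10:98474469-98475138, both 23.2-fold, lay 7.17 kb and 256 bp from regions with a PBS podocyte peak. The last, chr4:148651532-148652175, had 21.4-fold enrichment and lay 2.50 kb from a region shared with PBS podocytes and PBS glomeruli. All 10 had another day 9 only region within 50 kb of their summit, as had 39 of the 53 day 9 only regions of at least 15-fold (73.6%), 57.6% of all day 9 only regions and 59.2% of the others of at least 15-fold. Of the 10, 4 had a region with a PBS podocyte peak within 10 kb, near the 46.5% of all day 9 only regions.

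Day 9 only regions mostly lay near other WT1 regions. Another region of any kind was within 10 kb of 4358 of them (64.7%, interval 63.5 to 65.8), close to the 66.7% of all regions with a day 9 peak, and the median distance to the nearest region was 4928 bp for day 9 only regions and 4389 bp for the others. A region with a peak of another list was within 10 kb of 56.4% of day 9 only regions and, the region itself left out, of 62.3% of the others. For a region with a PBS podocyte peak the share was 46.5% for day 9 only regions and, the region itself left out, 51.4% for the others.

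With the day 9 regions in 4 bins of fold enrichment, 68.0% of day 9 only regions (66.2 to 69.7) and 61.6% of the others (60.3 to 62.8) in the lowest bin had a region within 10 kb. In the highest bin the values were 62.6% of 155 day 9 only regions (54.7 to 69.8) and 73.4% of the others (72.4 to 74.4). The difference thus had opposite signs at the ends of the signal range. A single statement on how close day 9 only regions lay to other sites does not cover both.

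Day 9 only regions had one another as neighbours more often than the other day 9 regions had them. The nearest region was day 9 only for 1607 of them (23.8%, 22.8 to 24.9), against 17.6% over all regions with a day 9 peak and 15.9% (15.4 to 16.3) over the others. With neighbours within 1 kb left out the shares were 23.0% and 16.5%. From the lowest to the highest of the 4 bins of enrichment they were 21.2%, 24.2%, 27.3% and 37.4% for day 9 only regions and 11.6%, 14.7%, 16.8% and 18.9% for the others.

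**Figure D3:**
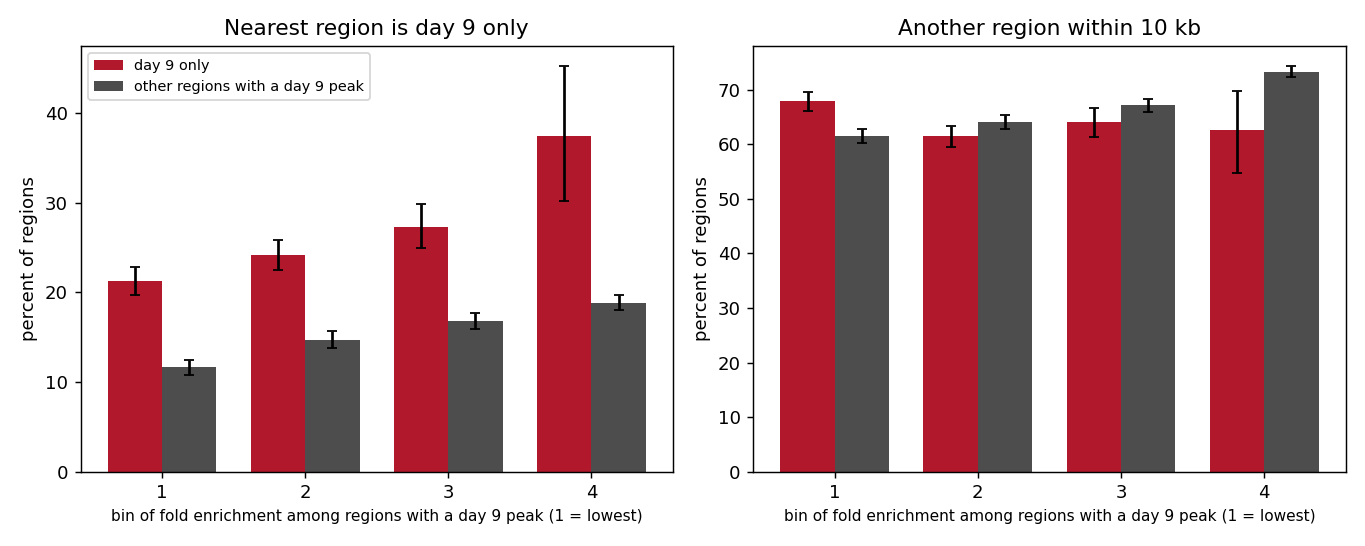
Percent of regions (y axis) whose nearest region was day 9 only (left) and that had any other region within 10 kb (right), in 4 bins of day 9 fold enrichment (x axis, 1 the lowest). Red bars are day 9 only regions and grey bars the other regions with a day 9 peak, with 95% Wilson intervals over regions. On the left red is above grey in all 4 bins, and on the right red is above grey in the lowest bin and below it in the highest.

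The regions of other single lists also neighboured their own kind. For regions in ADR glomeruli alone the nearest region was of the same class in 10.1%, against 4.42% of other regions with an ADR glomerular peak. In PBS podocytes the values were 7.17% and 4.06%, and in PBS glomeruli 16.7% and 10.97%. The difference was 7.99 percentage points for day 9, 5.73 for ADR glomeruli, 3.11 for PBS podocytes and 5.71 for PBS glomeruli. Neighbours of the same class were therefore more frequent in each of these 4 lists, and the sizes of these differences were not tested against each other.

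Of all merged regions, 16.1% were day 9 only. Taken one after the other along the chromosomes, 2705 of the day 9 only regions (40.1%) stood in 1153 runs of 2 or more with no region of another kind between them. Most of these runs were pairs, 882 in number, and 7 runs held 6 regions or more. The longest run, 9 regions on chromosome 2 from 141104859 to 142590593, spanned 1486 kb, with enrichments of 4.66 to 9.91-fold. A run of 6 regions on chromosome 15 was far tighter, with 26.4 kb from 99621312 to 99647754 at 3.28 to 6.81-fold. Among runs of 5, one on chromosome 6 spanned 22.1 kb from 144637469 to 144659613 at 7.44 to 10.2-fold. Runs thus ranged from a local group of sites to a stretch of over 1 Mb with sparse sites. How many runs the share of 16.1% alone would give was not computed.

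Counted by summit in windows of 100 kb, day 9 only regions fell into 4376 windows. In 542 windows there were 3 or more, which together held 1987 of the 6738 regions, and in 78 there were 5 or more. The same count was not made for all regions with a day 9 peak, 66.7% of which had another region within 10 kb. The window counts therefore do not show whether day 9 only regions gathered more than day 9 regions in general. Both windows with the highest count held 10. On chromosome 2, from 60700001 to 60800000, 10 of 22 day 9 regions were day 9 only, at 4.35 to 10.53-fold, and the lists had 22 peaks at day 9, 2 at day 14, 7 in ADR glomeruli, 9 in PBS podocytes and 10 in PBS glomeruli. On chromosome 3, from 116000001 to 116100000, 10 of 17 were day 9 only, with 17 peaks at day 9, 4 at day 14, 4 in ADR glomeruli, 8 in PBS podocytes and 8 in PBS glomeruli. Both windows were occupied in every list. Since windows were picked by their day 9 only regions, the larger number of peaks at day 9 follows from the choice.

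In the 11 windows with 8 or more day 9 only regions, their share of the day 9 regions was highest on chromosome 6, from 144600001 to 144700000. They were 9 of 12 there, and the other lists had 2 peaks at day 14, 3 in ADR glomeruli, 2 in PBS podocytes and 5 in PBS glomeruli. Of the 10 strongest regions, 1 lay in these 11 windows. This window on chromosome 6, from 34500001 to 34600000, held 8 day 9 only regions with the 26.3-fold region among them.

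**Figure D4:**
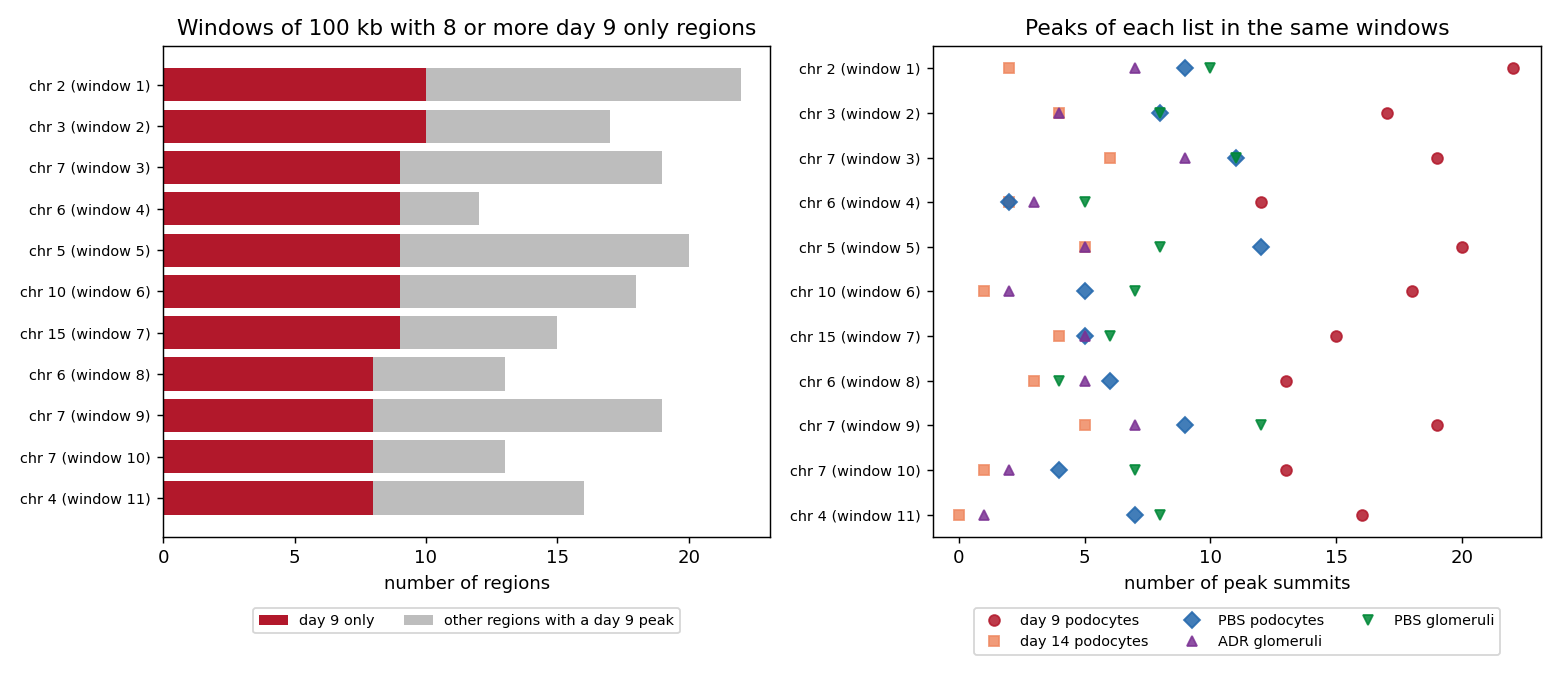
The 11 windows of 100 kb with 8 or more day 9 only regions, 1 per row. Left, number of day 9 only regions (red) and other regions with a day 9 peak (grey). Right, number of peak summits of each list in the same window. Peaks number 12 to 22 at day 9 and 0 to 6 at day 14, in windows picked by their day 9 only regions and from lists of unequal length.

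Day 9 only regions were spread over all autosomes and the X chromosome. Their share of the day 9 regions of a chromosome ranged over the 19 autosomes from 15.4% (interval 13.98 to 17.04) on chromosome 11 to 27.2% (24.96 to 29.60) on chromosome 13, with a median of 21.2%. Chromosome 11 was low at 25.3%, 22.8% and 8.93% in the lowest 3 of the 4 bins of enrichment, the lowest autosome in each, and chromosome 13 was the highest in each, at 40.9%, 45.7% and 20.1%. The contrast between these chromosomes was therefore present within these bins of enrichment. In the highest bin chromosome 11 had 1.06% and chromosome 13 had 3.29%, while chromosome 4 was the lowest at 1.02%. Bins of −log10 q were not taken per chromosome.

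Per megabase of chromosome, day 9 only regions varied less than the others. There were 1.91 to 3.52 day 9 only regions per Mb over the autosomes and 7.29 to 14.9 others. Over the 19 autosomes, Spearman's rho with the number of protein-coding genes per Mb (GRCm38 gene table) was 0.29 for the density of day 9 only regions and 0.78 for that of the others. The corresponding Pearson's r was 0.32 and 0.75, and 0.52 and 0.87 without chromosomes 7 and 11, the most gene-dense. The share of day 9 only regions ran the other way, with a rho of -0.66 and a Pearson's r of -0.60, or -0.53 without those chromosomes. These are descriptions over chromosomes of the same libraries and carry no p-value.

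**Figure D5:**
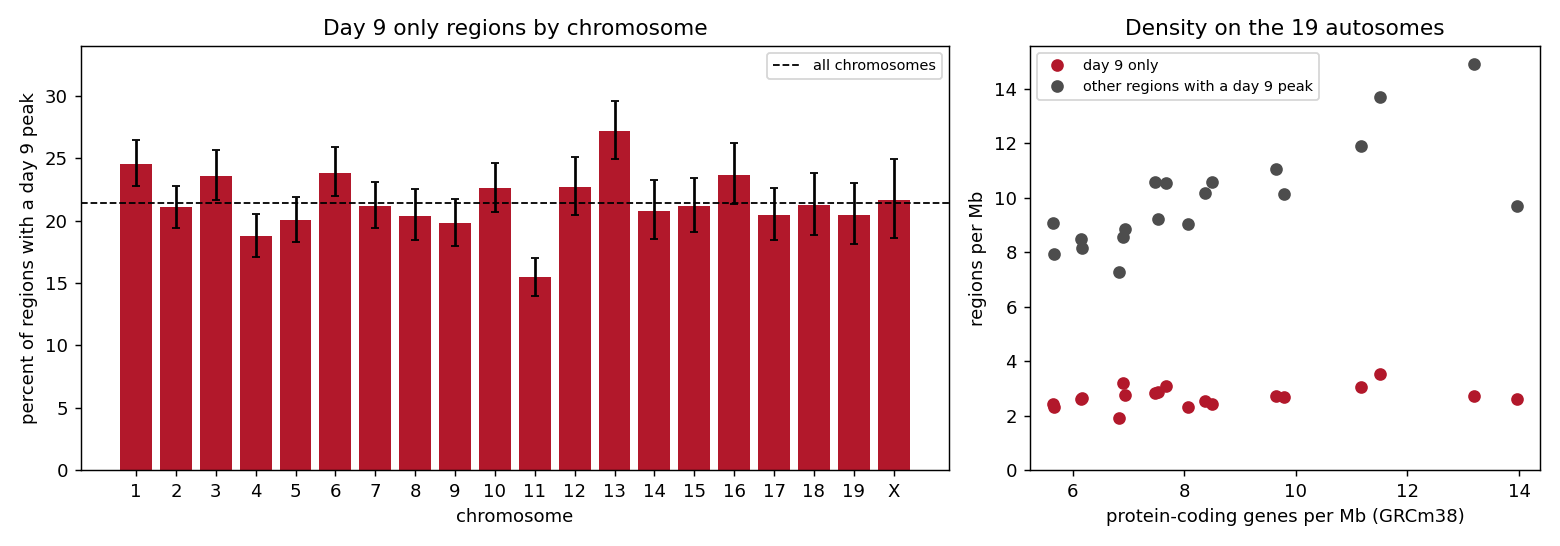
Left, day 9 only regions as a percent of regions with a day 9 peak (y axis) on each chromosome (x axis), with 95% Wilson intervals over regions and the percent over all chromosomes as a dashed line (21.4%). Right, regions per Mb (y axis) by protein-coding genes per Mb (x axis) on the 19 autosomes, red for day 9 only regions and grey for the others. Chromosome 11 is lowest at 15.4% and chromosome 13 highest at 27.2%, and the red points stay between 1.91 and 3.52 per Mb.

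The number of PBS podocyte regions nearby showed the same lean. With no other PBS podocyte region within 50 kb, 25.1% (23.99 to 26.29) of 5497 regions with a day 9 peak were day 9 only, and with 8 or more 18.5% (17.1 to 19.9) of 2868 were. In the second of the 4 bins of enrichment the shares were 39.3% and 30.3%, in the third 20% and 11.5% and in the highest 3.78% and 0.803%. The lowest bin ran in the opposite direction, with 32.2% and 38.1%. Above the weakest signals, day 9 only regions thus took a larger share where PBS podocytes had no other region near. The PBS podocyte list is also one that the rule used, so this lean may follow from the choice and is a description.

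A small set stood alone. The most isolated day 9 only region, at 41669790 to 41670331 on the X chromosome, was 2163 kb from any other region, with 8.06-fold enrichment. The next were chr14:91994340-91994590 (5.28-fold, 2118 kb) and chr2:97430754-97431188 (9.60-fold, 1807 kb). In all, 313 day 9 only regions (4.65%) had no region of any kind within 100 kb. Their counterparts among the others numbered 749 (3.03%).

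Peaks were not assigned to genes and no motif or sequence was read, because no genome or annotation of the build of the files was used here. The distance of day 9 only regions to gene starts and their share with a WT1 motif were therefore not analysed here.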

How the data were processed

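The submitters' processing notes name Bowtie 0.12.7, the build mm9 and MACS2. How libraries were pooled and which control and cutoff were used is not given in the sources used here. For each group 1 narrowPeak list was deposited. The fold enrichment (a ratio over the caller's background), the −log10 p and the −log10 q of each peak are the authors' deposited values. The deposited score column was not used in any result. Chromatin had been fixed with 1% formaldehyde for 5 min and sheared to 200 to 600 bp, and glomeruli of 2 kidneys went into an immunoprecipitation, per the labels' protocols. Read depth per library is unknown here, and the smallest −log10 q was 1.52 at day 9, 2.25 at day 14, 1.31 in ADR glomeruli, 1.51 in PBS podocytes and 1.32 in PBS glomeruli.

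Peaks were joined when they overlapped or touched. A region took the fold enrichment and width of its highest day 9 peak. The 4 and 10 bins of signal were taken over all regions with a day 9 peak, and distances are bases between region edges. Chromosome lengths were taken as the last peak end in any list. Gene counts per chromosome came from the RefSeq table of GRCm38, whose positions were not compared with peaks. Shares carry 95% Wilson intervals, which cover the counting of regions and not the variation between animals. Regions named in the text are the 10 of highest fold, the 5 of highest −log10 q, the 5 widest, the 5 most isolated, the 5 closest to another list's peak and the windows with most day 9 only regions, and leading ones are given. The limit of 5 windows fell among 5 tied at 9 regions, so the windows with 8 or more were plotted. The further windows and the runs were chosen after their values were seen. Members and settings were chosen with earlier results of these data known. The joining and distance code was tested on simulated lists. The scripts ran in Python 3.11.15 with pandas 2.3.3, numpy 2.4.6, matplotlib 3.10.9 and scipy 1.17.1.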

Additional observations from a re-analysis of the deposited data

How the results depend on the processing

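No paired analysis was possible because the libraries of a group share a single peak list, which also means that no replicate was left out. The number of day 9 only regions, 6738, stayed within 1.5 times when peaks were joined at 1 bp of overlap, at 500 bp apart, by 50% overlap, by summits within 200 bp, at a −log10 q of at least 3 or at one of at least 10 in every list (5426 to 7139). It was 2188 with a −log10 q of at least 10 asked of day 9 alone, 2555 with day 9 trimmed to the length of the PBS podocyte list, and 1694 and 408 with every list trimmed to the lengths of the ADR glomerular and day 14 lists, both added after the data were seen. All 10 of the strongest regions held under each of these except joining at 500 bp, which kept 9. With a −log10 q of at least 10 asked of every list, the members changed more than their number. Only 2188 of the 6738 reached that q, so most of the 5426 were new members whose peaks in other lists fell below it. The values given below at that q describe this changed set. Median enrichment was 7.44-fold at a −log10 q of at least 10 in every list and 5.30-fold with joining at 500 bp. The share with a region within 10 kb was 55.8% at that q and 46.5% with PBS podocyte neighbours, and at 5 and 50 kb it was 50.3% and 90.3%. Windows of 50 kb with 3 or more numbered 331. The share of day 9 only regions from the lowest to the highest of 4 bins was 33.1%, 34.3%, 15.9% and 1.99% by enrichment, 50.8%, 25.1%, 8.35% and 0.559% by −log10 p, and 29.9%, 42.4%, 22.1% and 3.88% at the stricter q. At that q, added after the data were seen for these values, chromosome 11 had 19.2% and remained the lowest autosome, with chromosome 13 the highest, and 2 regions were in day 14 alone, 375 in ADR glomeruli alone and 1986 in PBS glomeruli alone. Distance to gene starts and WT1 motifs, with their alternatives, were not run for want of a genome of the build. The unknown depth of the lists limits any statement that a region was bound at day 9 and unbound elsewhere.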

Other observations

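On the X chromosome 139 of 643 regions with a day 9 peak (21.6%) were day 9 only, a share inside the autosomal range, at 0.835 day 9 only regions per Mb. On the Y chromosome there were 4 of 25, with a median of 2.55-fold. The 6 regions with a day 9 peak on the mitochondrial genome all had a peak in another list.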
